A study of Homo sapiens with 4 samples.

Results

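The nuclear RNA polymerases and the Integrator complex were described in the human ovarian carcinoma line HeyA8-MDR, which resists several drugs, on arrays labelled miR204 and on control arrays. The members were chosen by gene symbol and brightness, with earlier results of these data known. Every symbol of the platform annotation that begins with POLR1, POLR2, POLR3 or INTS was taken, with the brightest feature standing for a symbol. Of 46 such symbols, 2 pseudogenes (INTS4P2 and POLR2J4) were left out, which gave 44 members among 17687 distinct symbols and 21448 features. They were 8 subunits of polymerase I, of which POLR1C and POLR1D also belong to polymerase III, 4 subunits common to all 3 polymerases, 8 of polymerase II, 9 of polymerase III and 15 of Integrator. Each member had a single feature, so brightness decided no choice among them.

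RNA polymerase I makes the large ribosomal RNA precursor, RNA polymerase II makes messenger RNAs and most small nuclear RNAs, and RNA polymerase III makes transfer RNAs, 5S ribosomal RNA and other short transcripts. The enzymes share a core of small subunits, and each adds its own large catalytic subunits, stalk and initiation subunits. Integrator is a metazoan complex that rides on RNA polymerase II, cleaves nascent small nuclear RNAs and paused transcripts with an endonuclease module, and carries a phosphatase module that removes phosphates from the polymerase tail.

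Total RNA had been labelled with biotin and read on Clariom S arrays, a 1-colour platform on which the signals of several probes are summarised to 1 log2 value per feature. The 2 arrays titled miR204 were taken as cells given the miR-204-5p inhibitor, an antisense oligonucleotide that blocks the mature microRNA, and the 2 arrays without that word as cells given a control inhibitor, from the titles and the series' design text. The control arm rests on those titles and that text, because the treatment field of every sample mentions the miR-204-5p inhibitor alone. All cells were grown with 15% serum, gentamicin sulfate and paclitaxel at 300 ng/ml. The labels do not state whether replicates came from separate cultures, so the p-values reflect the spread among 4 arrays, and that spread may be technical. HeyA8-MDR is a single line, and the level of miR-204-5p was not analysed here.

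The blocked microRNA is shown with the related miR-211-5p because both carry the same seed, bases 2 to 8 from the 5′ end, in capitals. The sequences are RefSeq's (GRCh38.p14), and the 2 microRNAs differ at 2 of 22 bases, both outside the seed. They lie at chr9:70810031-70810052 and chr15:31065095-31065116, both on the minus strand.
hsa-miR-204-5p: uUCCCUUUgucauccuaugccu
hsa-miR-211-5p: uUCCCUUUgucauccuucgccu

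Array medians were 5.59 and 5.61 log2 units on the miR204 arrays, against 5.65 and 5.68 on the control arrays, and the spread of values was narrower on the miR204 arrays (SD 2.08 and 2.13, against 2.20 and 2.21 on the control arrays). Over all features, the control arrays correlated with each other at r = 0.995 and the miR204 arrays at 0.986. With control arrays 1 and 2, miR204 array 1 correlated at 0.985 and 0.984, and miR204 array 2 at 0.989 and 0.988. The miR204 arrays were thus less alike than miR204 array 2 and either control array. Bright features were lower on the miR204 arrays as a body: over 10 equal bands of mean level, the median log2 difference, miR204 minus control, ran from 0.085 in the dimmest band to -0.215 in the brightest, with -0.07 over all features. All but 1 member, INTS6L, lay in the 6 brightest bands, and 38 of the 44 in the 4 brightest, so each member's difference is also given relative to the median of its own band. As a check of the line, KRT8 and KRT18, epithelial keratins, averaged 11.285 and 10.76 on the miR204 arrays and 11.375 and 10.96 on the control arrays. PAX8, a Müllerian lineage factor, averaged 8.315 on the miR204 arrays and 8.47 on the control arrays. ABCB1, the drug efflux pump of multidrug resistance, averaged 7.61 on the miR204 arrays and 7.725 on the control arrays. EPCAM (miR204 3.145, control 3.53) and CDH1 (miR204 3.155, control 2.84), markers of epithelial junctions, were dim. Of the 8 epithelial and ovarian carcinoma markers, 7 had a difference below 0, as had 59.2% of all features. The median of the 8 was -0.29, or -0.085 relative to the band, and 4 of the 8 lay below the median of their band. Among the 7 with a difference below 0 were KRT7 (-0.40), WT1 (-0.555) and MUC16 (-0.385). The 5 mesenchymal markers were all bright, with mean levels from 9.10 to 11.86. VIM (-0.255), ZEB1 (-0.335) and CDH2 (-0.305) were lower on the miR204 arrays, and FN1 (0.375) and SNAI2 (0.44) were higher. Of 5 leukocyte markers, with a median difference of 0.115, the defining marker PTPRC was dim (miR204 2.95, control 2.835). CD68, a lysosomal protein, was bright (miR204 8.425, control 8.40). CD3E differed by 0.33, CD14 by 0.29 and ITGAM by -0.46. The 5 fibroblast markers had a median difference of -0.095, with PDGFRA at -0.585, COL1A1 at -0.17, COL1A2 and LUM at -0.095 and DCN at 0.165. Of 5 endothelial markers, with a median difference of 0.045, CDH5 differed by -1.075 (miR204 7.02, control 8.095), PECAM1 by 0.47 and VWF by 0.045, and TEK and KDR were dim.

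Subunits of the nuclear polymerases and Integrator were lower on the miR204 arrays almost throughout. The log2 difference was below 0 for 41 of the 44 members, where it was below 0 for 59.2% of all features and 74.7% of features in the members' level bands. After quantile normalization it was below 0 for 34 of the 44, and for 10825 of all 21448 features. As deposited, it had a median of -0.33 over the members and ran from -0.70 for POLR3G to 0.10 for INTS1. Both miR204 arrays lay below both control arrays for 36 members and above them for 0, where 33.8% of all features lay below without overlap and 16.5% above. That is 81.8% of the members below without overlap, against 52.4% of features in the members' level bands. A total of 32 members had a difference below the median of their own band, and the median of the members' differences from their band was -0.155.

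No single member passed the threshold of limma, a linear model with a moderated test fitted over all features: 0 of 44 reached an adjusted p of 0.05 (Benjamini-Hochberg over 21448 features), against 0.0513% of all features, and the lowest adjusted p was 0.15, that of POLR2H. At an unadjusted p under 0.05, 17 members were lower and 0 higher, where 12.8% of all features were lower and 5.11% higher. That is 38.6% of the members, against 20.2% of features in the members' level bands. The outcome depended on how limma's variance prior was set. With 1 array left out in turn, 6 members were lower at that level without control array 1 (4.3% of all features), 2 without control array 2 (2.72%), 16 without miR204 array 1 (12.4%) and 15 without miR204 array 2 (17.5%). With a prior that follows the level of a feature (intensity trend), 10 members were past the threshold and all 10 were lower. They were POLR1E, POLR1G, POLR1A, POLR1D, POLR2H, POLR2E, POLR2L, POLR2B, POLR3G and INTS2. Over all features 6.09% passed and were lower, and more did so in the brighter level bands, numbered from the dimmest. Of 2145 features each, these were 126 in band 7, 225 in band 8, 319 in band 9 and 483 in band 10. Those 4 bands hold 38 of the 44 members. Quantile normalization before the test left 8 members lower at an unadjusted p under 0.05 (7.1% of all features) and 0 past the adjusted threshold, and with both changes 1 member, POLR2H, was past it (1.19% of all features lower). Over features above the median level alone, 7 members were past it and lower (8.07% of the features tested).

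**Figure D1:**
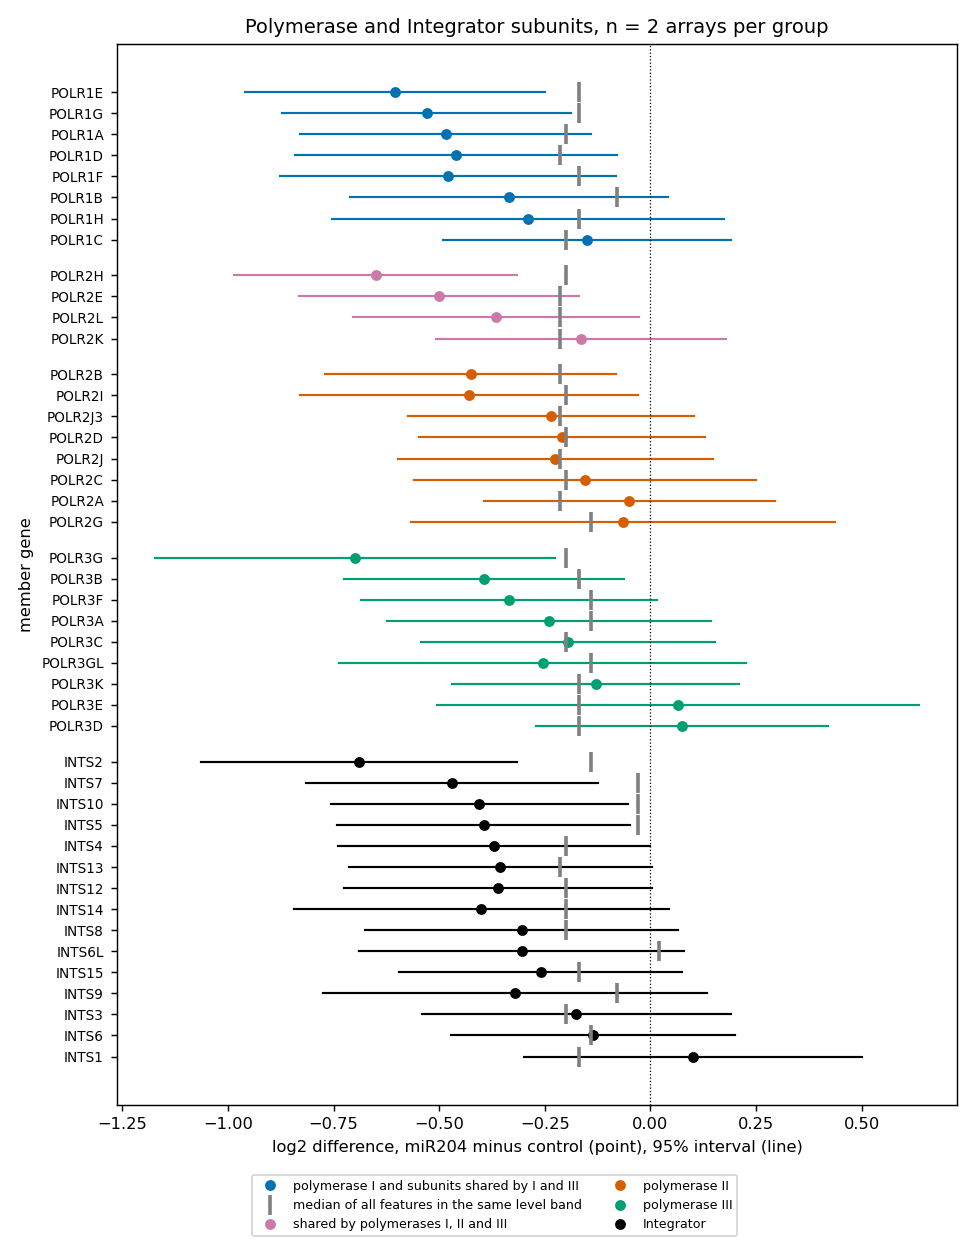
Log2 difference of each of the 44 members, miR204 minus control (point), with its 95% interval from limma (line), by complex, and the median difference of all features in the member's level band (grey tick). The points of POLR3G (-0.70), INTS2 (-0.69) and POLR2H (-0.65) lie farthest to the left, and those of INTS1, POLR3D and POLR3E lie right of 0.

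**Figure D2:**
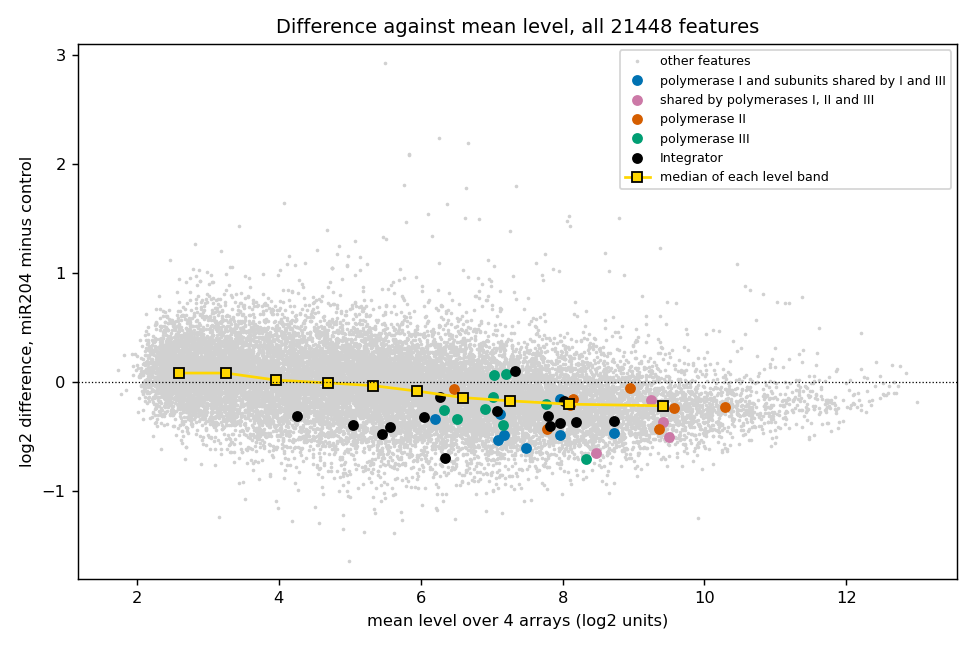
Log2 difference, miR204 minus control, against the mean level over 4 arrays for all features (grey) and the members (coloured by complex), with the median of each level band (squares). The squares descend from 0.085 to -0.215 with rising level, and 32 of the 44 members lie below the median of their band.

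Polymerase I was the complex with the lowest median, -0.47 over its 8 subunits, against -0.07 over all features, and its 8 differences were all below 0. At an unadjusted p under 0.05, 5 of the 8 were lower, against 20.7% of features in their level bands. Of the 8, 7 lay below the median of their level band, with a median of -0.27 relative to the band over the 8. POLR1E and POLR1G encode the paired subunits also called PAF53 and PAF49, which help the enzyme to initiate and to elongate. POLR1E measured 7.19 and 7.16 log2 units on the miR204 arrays, against 7.68 and 7.88 on the control arrays. The groups did not overlap, and the difference was -0.605 (SE 0.149, 95% interval -0.96 to -0.25, limma adjusted p = 0.17), or 0.657 times the control level. POLR1G gave 6.82 on both miR204 arrays and 7.28 and 7.42 on the control arrays, a difference of -0.53 (SE 0.144, limma adjusted p = 0.18).

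The largest, catalytic subunit POLR1A measured 7.68 and 7.76 on the miR204 arrays and 8.14 and 8.27 on the control arrays. Its difference was -0.485 (SE 0.145, limma adjusted p = 0.19), again without overlap. POLR1B, the second large subunit that completes the active centre, measured 6.16 and 5.92 on the miR204 arrays, against 6.30 and 6.45 on the control arrays, and differed by -0.335 (95% interval -0.71 to 0.04). Both catalytic subunits were thus lower on each miR204 array than on either control array. POLR1F, the stalk subunit that contacts the initiation factor RRN3, measured 6.90 and 6.96 on the miR204 arrays, against 7.24 and 7.58 on the control arrays, and differed by -0.48 (SE 0.167). POLR1H, a small zinc-binding subunit with a role in RNA cleavage, differed by -0.29 with overlapping arrays (7.21 and 6.74 on the miR204 arrays, 7.17 and 7.36 on the control arrays). POLR1D and POLR1C form the assembly platform that polymerases I and III have in common. POLR1D measured 8.52 and 8.47 on the miR204 arrays and 9.10 and 8.81 on the control arrays, a difference of -0.46 (SE 0.16). POLR1C differed by -0.15, and the interval of POLR1C ran from -0.49 to 0.19. After quantile normalization POLR1C turned to 0.04.

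Of the subunits built into all 3 polymerases, 4 were measured, and all 4 had miR204 arrays below both control arrays, as had 66.5% of features in their level bands. Their median difference was -0.43, or -0.22 relative to the band, and 3 of the 4 were lower at an unadjusted p under 0.05, against 23.1% of features in their bands. POLR2H encodes RPB8, a small structural subunit. It measured 8.13 and 8.16 on the miR204 arrays, against 8.84 and 8.75 on the control arrays, a gap wider than the spread within either group. The difference was -0.65 (SE 0.141, 95% interval -0.99 to -0.31, limma adjusted p = 0.15), or 0.637 times the control level, and POLR2H lay at -0.45 relative to the median of its level band. POLR2E encodes RPB5, which sits at the jaw of the enzyme. It measured 9.22 and 9.27 on the miR204 arrays and 9.73 and 9.76 on the control arrays, a difference of -0.50 (SE 0.139, limma adjusted p = 0.18). POLR2L, which encodes the zinc-binding assembly subunit RPB10, measured 9.25 and 9.21 on the miR204 arrays, against 9.54 and 9.65 on the control arrays, and differed by -0.365 (limma adjusted p = 0.25). POLR2K, which encodes RPB12, differed by -0.165 (95% interval -0.51 to 0.18), and by 0.04 after quantile normalization.

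The subunits of polymerase II alone lay near the features of like brightness. Their median difference was -0.22, 2 of 8 were lower at an unadjusted p under 0.05, against 22.5% of features in their level bands, and the median of their differences from the level band was -0.01. POLR2A is the largest catalytic subunit and carries the repeated tail that is phosphorylated through the transcription cycle. It measured 9.0 and 8.85 on the miR204 arrays and 8.96 and 8.99 on the control arrays, which overlap. Its difference was -0.05 (SE 0.145, 95% interval -0.39 to 0.29), and its sign turned with the scaling, to 0.015 with equal array medians and 0.16 after quantile normalization. POLR2B, the partner of POLR2A in the active centre, measured 9.13 and 9.17 on the miR204 arrays, against 9.50 and 9.65 on the control arrays. It did not overlap and differed by -0.425 (SE 0.145, limma adjusted p = 0.22). The intervals of the catalytic pair overlap, and the difference between them was not tested.

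POLR2I encodes RPB9, a subunit with roles in start site choice and fidelity. It measured 7.40 and 7.72 on the miR204 arrays and 7.92 and 8.06 on the control arrays, a difference of -0.43 (SE 0.168, limma adjusted p = 0.25). POLR2J and POLR2J3 are close copies that encode RPB11, which pairs with the POLR2C product at the start of assembly, and the probes may not separate them. POLR2J measured 10.04 and 10.31 on the miR204 arrays, against 10.39 and 10.41 on the control arrays. POLR2J3 measured 9.39 and 9.51 on the miR204 arrays, against 9.69 and 9.68 on the control arrays. Their differences of -0.225 and -0.235 were within 0.02 of the median of their band. POLR2C differed by -0.155 with overlapping arrays. The stalk subunits POLR2D (-0.21) and POLR2G (-0.065) made up the rest, and the arrays of POLR2G overlapped, at 6.69 and 6.17 on the miR204 arrays and 6.36 and 6.63 on the control arrays.

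The 9 subunits of polymerase III alone had differences from -0.70 to 0.075, with a median of -0.24, or -0.10 relative to the level band, and 5 of the 9 lay below the median of their band. At an unadjusted p under 0.05, 2 of the 9 were lower (22.2%), near the 20.2% of features in their level bands. POLR3G and POLR3GL are alternative subunits of the enzyme, and POLR3G is known from stem cells and tumour cells while POLR3GL is found broadly. POLR3G measured 7.74 and 8.23 on the miR204 arrays and 8.78 and 8.59 on the control arrays. The miR204 arrays were thus both lower but 0.49 apart, and the difference was -0.70 (SE 0.199, 95% interval -1.17 to -0.23, limma adjusted p = 0.18), or 0.616 times the control level. Without either miR204 array or either control array in turn it stayed between -0.945 and -0.455. POLR3GL measured 6.43 and 5.97 on the miR204 arrays, against 6.31 and 6.60 on the control arrays, and overlapped, with a difference of -0.255 (95% interval -0.74 to 0.23). The intervals of the 2 paralogs overlap, and whether they differ was not tested.

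The catalytic subunit POLR3B measured 6.97 and 6.95 on the miR204 arrays and 7.38 and 7.33 on the control arrays, a difference of -0.395 (SE 0.139, limma adjusted p = 0.23). Its larger partner POLR3A measured 6.79 and 6.77 on the miR204 arrays, against 6.87 and 7.17 on the control arrays, and differed by -0.24 (95% interval -0.62 to 0.14). Replicates of POLR3B lay within 0.05 of each other in both groups, whereas those of POLR3A spread by 0.3 on the control arrays. POLR3F, which joins POLR3C and POLR3G in the trimer that opens promoters, measured 6.36 and 6.33 on the miR204 arrays, against 6.59 and 6.77 on the control arrays, and differed by -0.335. POLR3C, of the same trimer, differed by -0.195, about that of its level band. POLR3D and POLR3E, a dimer related to the initiation factor TFIIF, had differences above 0: 0.075 (95% interval -0.27 to 0.42) and 0.065 (-0.51 to 0.64). The arrays of both overlapped, and those of POLR3E were far apart within the groups (6.77 and 7.35 on the miR204 arrays, 7.21 and 6.78 on the control arrays). POLR3K, the subunit for RNA cleavage and termination, differed by -0.13.

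**Figure D3:**
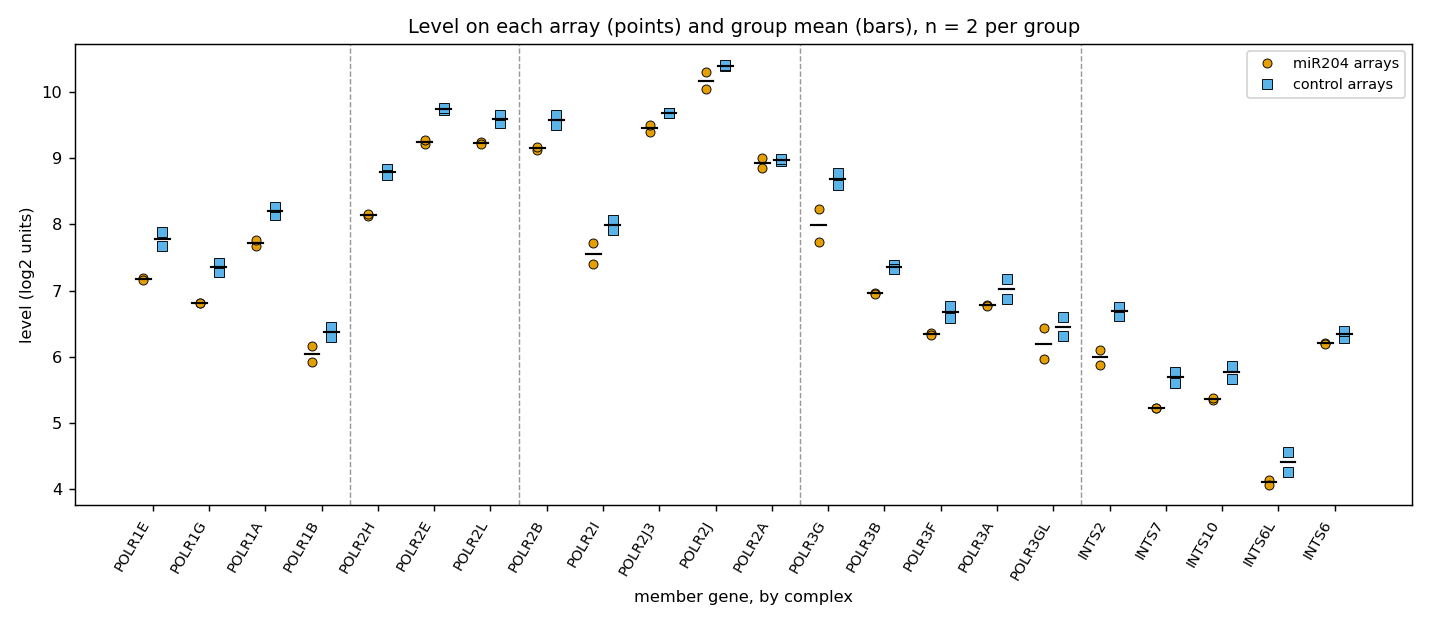
Level in log2 units on each array (points) and group mean (bars) for 22 members named by rule, miR204 left and control right within each gene, with dashed lines between complexes. POLR2H at 8.13 and 8.16 on the miR204 arrays and 8.84 and 8.75 on the control arrays shows a gap wider than its replicate spread, while the arrays of POLR2A and POLR3GL overlap.

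Integrator was lower on the miR204 arrays in 14 of 15 subunits, and in all 14 the arrays of the groups did not overlap. The median difference was -0.355, 5 of 15 were lower at an unadjusted p under 0.05, against 18.0% of features in their level bands, and 12 of 15 lay below the median of their level band, with a median of -0.17 relative to the band over the 15. In the level bands of the Integrator subunits, 45.1% of features lay below without overlap. INTS2 and INTS7 belong with INTS1 to the backbone of the complex. INTS2 measured 5.88 and 6.11 on the miR204 arrays and 6.61 and 6.76 on the control arrays. Its difference was -0.69 (SE 0.157, 95% interval -1.06 to -0.32, limma adjusted p = 0.16), or 0.62 times the control level, and lay at -0.55 relative to the median of its band, the farthest of all 44 members. INTS7 measured 5.22 on both miR204 arrays, against 5.61 and 5.77 on the control arrays, a difference of -0.47 (SE 0.145, limma adjusted p = 0.20). INTS1, the largest subunit, was the exception: it measured 7.55 and 7.20 on the miR204 arrays, which span its control values of 7.29 and 7.26, and differed by 0.10 (95% interval -0.30 to 0.50). Without miR204 array 1 that difference was -0.075.

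INTS10 belongs to the auxiliary module with INTS13, INTS14 and INTS15. It measured 5.35 and 5.37 on the miR204 arrays, against 5.67 and 5.86 on the control arrays, a difference of -0.405 (SE 0.148, limma adjusted p = 0.24). All 4 subunits of the module lay below the median of their bands, with differences from -0.405 to -0.26. INTS4 and INTS9 belong to the cleavage module. INTS4 measured 7.68 and 7.88 on the miR204 arrays, against 8.07 and 8.23 on the control arrays, a difference of -0.37 (SE 0.155). INTS9 differed by -0.32, with miR204 arrays 0.48 apart, and INTS4 has close pseudogene copies that the probes may not separate. The phosphatase module holds INTS5, INTS6 and INTS8, and INTS6L is a paralog of INTS6. INTS5 gave 4.85 on both miR204 arrays, against 5.16 and 5.33 on the control arrays, a difference of -0.395 (SE 0.146). INTS8 differed by -0.305. INTS6 measured 6.21 and 6.20 on the miR204 arrays and 6.29 and 6.39 on the control arrays, a difference of -0.135 that equals the median of its band to within 0.005. INTS6L, the dimmest member, measured 4.14 and 4.07 on the miR204 arrays, against 4.56 and 4.26 on the control arrays, and differed by -0.305 (95% interval -0.69 to 0.08). INTS12, a PHD finger subunit, differed by -0.36, and INTS3, which also serves in the DNA-binding SOSS complex, by -0.175, which turned to 0.01 after quantile normalization.

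Factors that work with these complexes were taken from 8 lists of partners, with 109 measured genes in all. Their median difference was -0.25, or -0.065 relative to the level band, and 67 of the 109 lay below the median of their band. In the same fit as the members, 0 genes passed the adjusted threshold of limma, and 31 were lower at an unadjusted p under 0.05 with 0 higher. That is 28.4% of the partner genes, against 12.8% of all features and 20.8% of features in their level bands. With the intensity trend 17 partner genes passed the adjusted threshold, all lower, against 6.09% of all features. Of 2145 features each, 225 in level band 8, 319 in band 9 and 483 in band 10, the brightest, passed and were lower. The median level of the partner genes, 7.78, falls in band 9. After quantile normalization 9 were lower at an unadjusted p under 0.05, against 7.1% of all features. For each list, the median difference is followed in brackets by the median relative to the level band. Factors of mRNA cleavage and polyadenylation, whose nuclease module resembles that of Integrator, had 7 of 15 lower, against 22.1% of features in their bands, with a median of -0.36 (-0.18). CPSF2, the relative of INTS9 in that machinery, measured 8.13 and 8.31 on the miR204 arrays and 8.77 and 8.89 on the control arrays (difference -0.61, SE 0.15, limma adjusted p = 0.17), and CPSF7 differed by -0.595. Assembly and import factors had 4 of 13 lower, against 19.7% in their bands, with a median of -0.36 (-0.20), among them the prefoldin-like UXT (-0.575) and the ATPase RUVBL2 (-0.435). Polymerase I factors had 4 of 8 lower, against 18.3% in their bands, with a median of -0.315 (-0.15), with the nucleolar phosphoprotein NOLC1 at -0.565 and the termination factor TTF1 at -0.485.

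General initiation factors of polymerase II had 3 of 17 lower, against 21.3% of features in their bands, with a median of -0.305 (-0.11), with the TFIIH subunit GTF2H3 at -0.525 and the TFIIE subunit GTF2E1 at -0.415. Pausing and elongation factors had 5 of 23 lower, against 22.4% in their bands, with a median of -0.15 (0.035) that turned to 0.03 after quantile normalization, and RTF1 of the PAF complex at -0.55 and the histone chaperone SSRP1 at -0.435. Polymerase III factors had 3 of 18 lower (16.7%), against 19.998% in their bands, with a median of -0.175 (-0.005), and the La protein SSB at -0.53 and the TFIIIC subunit GTF3C3 at -0.51. Integrator's phosphatase and SOSS partners had 3 of 8 lower, against 21.0% in their bands, with a median of -0.16 (0.015), and the scaffold PPP2R1B at -0.47 and NABP2 at -0.465. Mitochondrial transcription genes, which serve another polymerase, had 2 of 7 lower, against 18.9% in their bands, with a median of -0.285 (-0.115), and TFB2M at -0.435 and MTERF1 at -0.425. Proliferation markers moved with the members: all 10 were lower at an unadjusted p under 0.05. The share was 12.8% over all features and at most 23.8% in any level band. The markers' median was -0.58 (-0.36). After quantile normalization 7 of the 10 were lower at that p, against 7.1% of all features. Their summed linear signal was 5406 and 5853 on the miR204 arrays, against 8074 and 8643 on the control arrays. The part of these markers in the members' differences was not tested. In bulk RNA, fewer cells of a kind and less RNA per cell cannot be told apart.

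**Figure D4:**
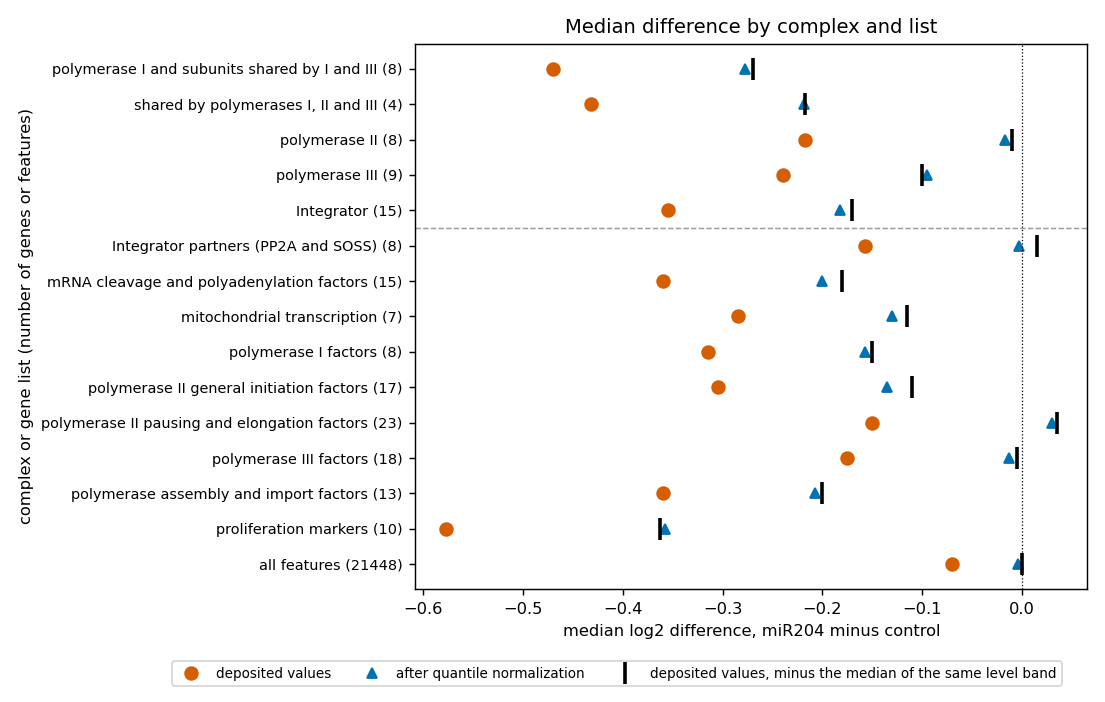
Median log2 difference, miR204 minus control, of each complex (above the dashed line), of each partner list, of the proliferation markers and of all features, on the deposited values (circles), after quantile normalization (triangles) and relative to the level band (ticks). Polymerase I has the leftmost circle of the complexes at -0.47 and proliferation markers the leftmost of all at -0.58, and the triangle of polymerase II lies at -0.02.

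Promoter sequence is shown for the member of each of the 5 groups with the largest moderated statistic among those with a RefSeq promoter in the table used here (32 of 44 members matched). Each is the 250 bases before the annotated start (GRCh38.p14), on the strand of the gene. Capitals mark matches on either strand to any of these motifs: the E-box CACGTG, the CCAAT box CCAAT, the GC box GGGCGG, the ETS motif CCGGAAG, the E2F motif TTTCCCGC or TTTGGCGC, and the TATA box TATAAA. No matches overlapped in these 5 windows. They lie at chr19:45406394-45406643 on the plus strand (POLR1G), chr3:184361460-184361709 on the plus strand (POLR2H), chr4:56978646-56978895 on the plus strand (POLR2B), chr12:106357498-106357747 on the plus strand (POLR3B) and chr17:61927983-61928232 on the minus strand (INTS2).
POLR1G: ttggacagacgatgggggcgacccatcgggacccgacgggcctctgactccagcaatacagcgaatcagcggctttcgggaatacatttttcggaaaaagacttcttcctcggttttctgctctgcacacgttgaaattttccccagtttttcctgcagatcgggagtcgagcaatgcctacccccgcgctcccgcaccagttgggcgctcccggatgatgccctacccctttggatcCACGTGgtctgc
POLR2H: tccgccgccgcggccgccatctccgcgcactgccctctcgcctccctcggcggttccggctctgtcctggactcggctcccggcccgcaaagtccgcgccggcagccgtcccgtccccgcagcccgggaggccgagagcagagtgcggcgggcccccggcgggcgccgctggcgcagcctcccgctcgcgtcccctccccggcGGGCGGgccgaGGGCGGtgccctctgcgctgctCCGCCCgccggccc
POLR2B: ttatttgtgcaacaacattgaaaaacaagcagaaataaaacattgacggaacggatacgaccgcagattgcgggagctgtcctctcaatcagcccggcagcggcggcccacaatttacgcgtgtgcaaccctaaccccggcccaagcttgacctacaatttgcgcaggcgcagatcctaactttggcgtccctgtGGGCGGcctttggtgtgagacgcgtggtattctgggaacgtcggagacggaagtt
POLR3B: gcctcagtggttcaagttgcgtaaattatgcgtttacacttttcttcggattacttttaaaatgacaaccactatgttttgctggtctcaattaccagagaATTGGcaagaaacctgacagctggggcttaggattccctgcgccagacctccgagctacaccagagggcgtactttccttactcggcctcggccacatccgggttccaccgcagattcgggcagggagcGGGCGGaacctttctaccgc
INTS2: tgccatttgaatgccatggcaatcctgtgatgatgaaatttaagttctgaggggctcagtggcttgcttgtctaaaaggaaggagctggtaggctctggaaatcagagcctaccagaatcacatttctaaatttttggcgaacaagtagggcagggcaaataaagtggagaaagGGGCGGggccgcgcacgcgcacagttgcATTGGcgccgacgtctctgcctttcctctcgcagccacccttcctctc

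The windows of POLR2H, POLR2B, POLR3B and INTS2 held GC boxes, 3 in that of POLR2H, and that of POLR1G held an E-box whose last base lies 7 bases before the start. POLR3B and INTS2 each held a CCAAT box on the opposite strand. Over the 32 member windows, a GC box stood in 22 (68.75%), against 42.3% of 27305 windows of all genes in the table and 56% of those of 15842 protein-coding genes. The ETS motif stood in 8 (25%), against 8.82% of all windows and 11.8% of coding ones, and the E-box in 4 (12.5%), against 6.49% and 7.84%. The CCAAT box stood in 11 (34.4%), against 33.0% and 34.5%, and the E2F motif in 2 (6.25%), against 1.96% and 2.59%. The TATA box, in 11.1% of all windows and 9.23% of coding ones, was in 0 of the 32. These letters are matches in a window and no evidence of binding.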

How the data were processed

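Total RNA of 4 HeyA8-MDR samples was measured on Clariom S arrays. The authors deposited log2 values summarised by RMA, with Transcriptome Analysis Console 4.0 named in the submitters' processing notes. Neither a genome build nor further parameters are given in the sources used here. RMA normalizes arrays to each other, so a change common to most transcripts would be reduced. The deposited arrays nevertheless differed in median and SD. A further quantile normalization moved the members' median difference from -0.33 to -0.16. Signal over background was not analysed here, and the number of arrays limits the precision. Symbols came from the platform annotation (17709 features with 1 symbol, 0 with several, 3739 with none) and biotypes from RefSeq.

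The comparison was fitted with limma 3.58.1 (R 4.3.3; lmFit, eBayes) with 2 residual and 4.78 prior degrees of freedom, two-sided, with Benjamini-Hochberg adjustment over 21448 features and a threshold of 0.05. No replicate block and no filter were used. An exact permutation of 2 against 2 arrays has 0.333 as its smallest p. In simulated data with the features' real mean levels and 200 features changed in random directions, the fit recovered 98.1% of 4-fold changes and 0% of 2-fold changes. No shift with level was simulated, so these shares need not hold for the deposited arrays. Level bands were 10 equal groups of features by mean level. The members, lists and settings were chosen with earlier results of these data known. Per-array values are given for the 3 members of each complex with the largest moderated statistic, for catalytic subunits and for paralogs, and up to 2 genes per partner list are named by that statistic. Per-array values of POLR1D, POLR1F, POLR1H, POLR2G, POLR3E, INTS1, INTS4 and INTS5 were added after their values were seen. Alternatives were other variance priors, normalizations and filters, a replicate block and leaving out each array.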

Additional observations from a re-analysis of the deposited data

How the results depend on the processing

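The call of single members depended on the variance prior and on the features tested. The number past an adjusted p of 0.05 was 0 in the reported fit, 10 with an intensity trend, 7 over features above the median level, which hold 40 of the members, and 1 with quantile normalization and trend together. The number lower at an unadjusted p under 0.05, 17 as reported, was 8 after quantile normalization, 10 with quantile normalization and trend, and 2 to 16 when 1 array was left out. Such fits have 1 residual degree of freedom and assume that the lone array varies like the other group. Partner genes lower at that level numbered 31 as reported and 9 after quantile normalization. The median difference of the polymerase members, -0.29, was -0.146 after quantile normalization, with or without trend, and -0.385 to -0.24 without 1 array. That of the Integrator members, -0.355, was -0.182 after quantile normalization, with or without trend, -0.29 with equal array medians, and -0.35 to -0.29 without 1 array. The difference turned positive after quantile normalization, with or without trend, for POLR1C (0.038), POLR2K (0.04), POLR2C (0.024), POLR2A (0.161), POLR2G (0.054), POLR3K (0.021) and INTS3 (0.01), and with equal array medians for POLR2A (0.015). With 1 array left out, the difference ran from -0.125 to 0.025 for POLR2A, from -0.325 to 0.195 for POLR2G, from -0.225 to 0.355 for POLR3E and from -0.075 to 0.275 for INTS1. The cause of these changes was not tested. With the replicate number as a block, 0 members passed the adjusted threshold, and same-numbered arrays did not deviate together (r = 0.006 over features). With 20 level bands in place of 10, 33 members lay below their band median, against 32. Averaging the features of a symbol changes nothing, since each member has 1 feature.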
